A study of Mus musculus with 39 samples.

Results

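Epiblasts that carry no functional copy of Stat3 were followed over a single day, from embryonic day 6.5 (E6.5) to E7.5. They were taken by their labels: 3 Stat3 null epiblasts at E7.5 and 8 at E6.5, which make 11 of the 39 samples of the series. In the null allele a neomycin resistance cassette replaces exons 20 to 22, and the embryos came from matings between heterozygous mice on the CD1 background. Each library held the RNA of 1 epiblast, freed by hand from the surrounding extraembryonic tissue, which served for genotyping by PCR. No treatment was given. The labels separate the groups by stage, and the libraries also differ in depth and in Y-linked transcripts: Ddx3y was at 57.8 to 64.8 CPM in E6.5 null 2, 3, 5 and 8, at 49.9 CPM in E7.5 null 3, and at 0 to 4.32 CPM in the other 6. With Y genes as a term in the test over the day, 10 genes were called in place of 20, and 8 were shared. The same day in wild-type (WT) epiblasts, 9 libraries at E6.5 and 9 at E7.5, is given as background. The comparison asks what still changes over this day when STAT3 is absent.

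STAT3 is a transcription factor that is activated by Janus kinases downstream of cytokine receptors, and in mouse embryonic stem cells it sustains naive pluripotency. Over the day studied here, the WT epiblast passes from a primed epithelium into gastrulation. Cells leave through the primitive streak, where Wnt, Nodal and FGF signals act, and become mesoderm and definitive endoderm, while the node and its derivatives form at the tip of the streak and the anterior epiblast turns to neuroectoderm.

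Total counts lay between 27913392 and 79013960 in the E6.5 null libraries and between 37143484 and 41655234 in those of E7.5. E6.5 null 1 to 3 had over 40000000 counts, and E6.5 null 2 and 3 detected 15531 and 15171 genes against 19178 to 22217 in the other 9 null libraries. The epiblast marker Pou5f1 was at 192 to 731 CPM (counts per library size, scaled by TMM) in all 11. Markers of the visceral endoderm, the layer around the epiblast, summed to 306 to 8210 CPM at E6.5 and to 285 to 538 CPM at E7.5, with E6.5 null 3, 4 and 8 the highest (8210, 5540 and 5030 CPM). None of the 17 visceral endoderm markers tested had a positive log2 fold change over the null day. The null medians of the sum were 1420 CPM and then 379 CPM. WT went the other way, from a median of 454 CPM (312 to 7090 CPM) to 2080 CPM (732 to 5100 CPM). Markers of the extraembryonic ectoderm summed to 1700 CPM in E6.5 null 1, to 40.8 to 198 CPM in the other E6.5 null libraries and to 33.3 to 63 CPM at E7.5. Elf5, which defines that tissue, was at 183 CPM in E6.5 null 1 and at 0, 0 and 0.557 CPM at E7.5. The extraembryonic ectoderm sums had medians of 98.4 and then 33.5 CPM in the null, against 28.8 and then 213 CPM in WT. The part of these opposite shifts in the differences between the null and the WT day was not tested. Markers of maternal blood and of decidua stayed at or below 26.5 and 108 CPM in sum. In bulk samples, fewer cells of a type and less RNA per cell cannot be told apart.

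Stat3 itself was read at 1.43 to 8.15 CPM in E6.5 null epiblasts, with a median of 3.97 CPM, and at 1.5, 1.3 and 1.24 CPM in E7.5 null 1, 2 and 3. The gene lies on the minus strand at chr11:100885098-100939540 (GRCm38), and reads on the exons that the null allele keeps are still counted. WT epiblasts held 5.66 to 28.6 CPM at E6.5 and 4.67 to 24.6 CPM at E7.5. All 3 E7.5 null libraries stayed below the lowest WT library, while the E6.5 null range reached into the WT range. The null log2 fold change over the day was -1.71 (SE 0.715), which did not pass the test (adjusted p = 0.543).

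Few genes passed the test over the day in null epiblasts. Of 19460 genes tested with edgeR's quasi-likelihood test, 20 were called, 13 higher and 7 lower at E7.5, where a call needs a change of more than 1 on the log2 scale, up or down, and an adjusted p below 0.05 (0.103% of the genes tested, 0.0668% higher and 0.036% lower). At any fold, 29 genes had an adjusted p under 0.05 (0.149%), and 1582 had an unadjusted p under 0.05. In WT epiblasts the same day gave 1518 calls among 17191 genes, 987 higher and 531 lower (8.83%, 5.74% and 3.09%), from 9 libraries against 9. The designs of these tests are of unequal size. The WT stages were apart upward in 1.36% and downward in 1.05% of genes. In all 20 null calls the 3 E7.5 libraries did not overlap the 8 E6.5 libraries, against 783 genes apart upward (4.02%) and 390 apart downward (2%) among all tested. All 20 had the same sign in WT, and 10 of them were also called there, in the same direction. The number of calls rested on each E7.5 null library, since leaving out replicates 1, 2 and 3 of that group in turn gave 0, 1 and 0 calls (944 genes at an unadjusted p below 0.05 for the first and 928 for the last). Among the E6.5 null libraries, leaving out replicate 1 or 3 gave 32 calls, and leaving out replicates 4, 5, 6 and 8 gave 4, 5, 11 and 1. Against the 5 E6.5 null libraries under 40000000 counts, 181 genes were called, 104 higher and 77 lower (0.558% and 0.413%). DESeq2 called 296, with 58 higher (0.353%) and 238 lower (1.45%), and thus gave mostly lower calls where edgeR gave mostly higher ones.

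Histone genes were the largest named family among the calls. Replication-dependent histone genes are clustered, are transcribed during S phase, and give mRNAs that end in a stem-loop in place of a poly(A) tail, which the total RNA kit used here can read. The calls held 5 H2B genes and 1 H4 gene of the Hist1 cluster on chromosome 13, namely Hist1h2bn, Hist1h2bq, Hist1h2br, Hist1h2bk, Hist1h2bc and Hist1h4h. The 250 bases before the start of 4 of them are shown with short promoter motifs marked. They are from RefSeq on GRCm38.p6, 5′ to 3′ on the strand of the gene, with CCAAT, its reverse complement ATTGG and the octamer ATTTGCAT in capitals.
Hist1h2bn, chr13:21753826-21754075, plus strand: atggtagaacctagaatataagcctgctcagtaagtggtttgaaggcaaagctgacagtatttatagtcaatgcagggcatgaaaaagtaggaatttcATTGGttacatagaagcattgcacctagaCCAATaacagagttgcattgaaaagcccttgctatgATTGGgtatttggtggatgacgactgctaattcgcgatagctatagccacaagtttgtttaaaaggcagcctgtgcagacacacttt
Hist1h2bq, chr13:21810200-21810449, minus strand: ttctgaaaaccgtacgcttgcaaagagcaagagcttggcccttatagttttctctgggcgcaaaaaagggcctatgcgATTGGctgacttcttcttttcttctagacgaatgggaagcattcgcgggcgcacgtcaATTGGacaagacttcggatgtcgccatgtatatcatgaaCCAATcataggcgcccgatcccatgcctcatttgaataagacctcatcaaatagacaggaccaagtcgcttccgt
Hist1h2bk, chr13:22035571-22035820, plus strand: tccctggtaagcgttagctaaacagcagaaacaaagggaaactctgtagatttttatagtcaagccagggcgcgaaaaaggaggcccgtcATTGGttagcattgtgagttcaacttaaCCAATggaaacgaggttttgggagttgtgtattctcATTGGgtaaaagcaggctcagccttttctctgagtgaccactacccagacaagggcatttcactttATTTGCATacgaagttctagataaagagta
Hist1h4h, chr13:23530794-23531043, plus strand: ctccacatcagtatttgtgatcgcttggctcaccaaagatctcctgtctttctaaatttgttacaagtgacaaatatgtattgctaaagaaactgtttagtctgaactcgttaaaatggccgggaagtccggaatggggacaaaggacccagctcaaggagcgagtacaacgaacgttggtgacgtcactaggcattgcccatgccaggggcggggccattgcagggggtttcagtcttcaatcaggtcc

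The window of Hist1h2br was identical to that of Hist1h2bq, and 5 of the 6 called histone genes had a promoter entry. Each of the H2B windows shown held 3 matches to CCAAT on either strand, that of Hist1h2bk held 1 octamer, and that of Hist1h4h held neither. Among tested histone genes with an entry, CCAAT was present in 15 of 15 H2B, 17 of 17 H2A, 6 of 6 H1, 8 of 10 H3 and 3 of 12 H4 windows, and in 33.8% of all 32817 promoters. The octamer was in 5 of the H2B windows (33.3%) and 7 of the H2A windows (41.2%), against 1.6% of all promoters. It was in 0 of the H1, H3 and H4 windows. These matches describe letters in a window and were not tested for function.

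Hist1h2bn lay between 52.3 and 122 CPM in E6.5 null epiblasts, with a median of 92.2 CPM, and at 229, 219 and 209 CPM at E7.5. The groups were well apart, and the log2 fold change was 1.30 (SE 0.21, adjusted p = 0.0301). Hist1h4h rose from a median of 60 CPM (42.3 to 75.3 CPM) to 158, 163 and 98.4 CPM, a log2 fold change of 1.22 (SE 0.205, adjusted p = 0.0301), with E7.5 null 3 nearest to the E6.5 libraries. The other 4, Hist1h2bq, Hist1h2br, Hist1h2bk and Hist1h2bc, rose by log2 fold changes of 1.07, 1.03, 1.05 and 1.0, with adjusted p-values of 0.0177, 0.0232, 0.0301 and 0.0301. In WT epiblasts the 6 genes had log2 fold changes of 0.45 to 0.73, all with an adjusted p below 0.05 (0.000605 to 0.0441; 24.9% of all genes at any fold) but under the fold that a call needs. The test of the difference called 0 of the histone genes. Transcripts of the 5 H2B genes share at least 95% of their bases over at least 100 bases with 9 to 13 other genes, and the counting could have split reads between these copies, so their rises are not 5 separate measurements. The predicted antisense gene Gm20632, which overlaps Hist2h2aa2 on the other strand and shares sequence with Hist2h2aa1, was at 42.3 to 132 CPM and then at 434, 225 and 444 CPM (log2 fold change 2.0, SE 0.264, adjusted p = 0.0202). Without knowledge of the strand setting used in counting, its reads cannot be told from those of its partner.

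Across the family the shift was broad and small. Of 71 histone genes tested, 67 had a positive log2 fold change, 6 were called, and 46 had E7.5 null libraries all above the E6.5 null range. Among all 19460 genes, 9487 were positive, 0.0668% were called higher and 4.02% were apart upward. The median log2 fold change of the histone genes was 0.90 in the null and 0.30 in WT, against -0.01 and 0.01 over all genes tested. By class the null medians were 0.45 for 6 H1 genes, 0.76 for 20 H2A, 0.97 for 20 H2B, 0.89 for 12 H3 and 1.22 for 13 H4. The members with negative values were Hist1h2aa, Hist1h1t, Hist1h2al and 1 of 2 genes listed as Hist2h2bb. Summed over the 71 genes, E6.5 null epiblasts held 6130 to 10900 CPM and E7.5 null epiblasts 14900, 15800 and 12900 CPM, whereas WT epiblasts already held 8140 to 16000 CPM at E6.5 and 10800 to 16200 CPM at E7.5. The 2 null groups did not overlap in this sum, and the WT groups did. E6.5 null 3 and 4 had the lowest sums (6130 and 6640 CPM) together with the highest visceral endoderm sums. With the visceral endoderm markers as a term in the fit, 23 genes were called and 0 of the 6 histone genes were among them, although their log2 fold changes stayed positive at 0.68 to 0.93 and the family median at 0.53. Against the E6.5 null libraries under 40000000 counts the family median was 0.84, and 14 histone genes were called higher (0.558% of all genes tested there were called higher).

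**Figure D1:**
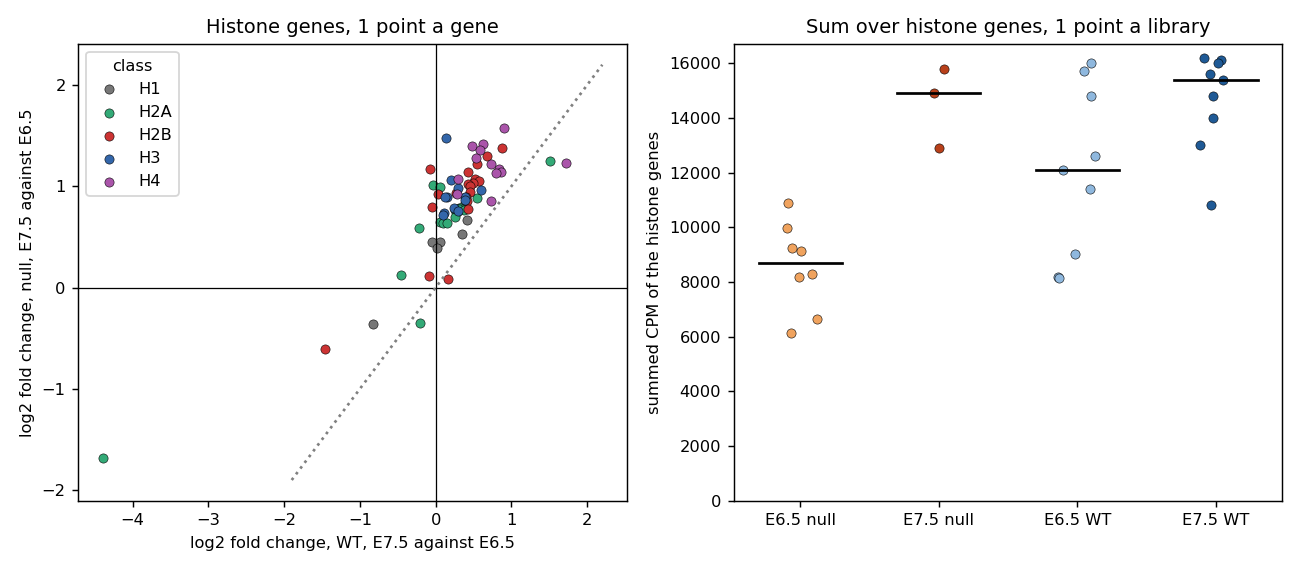
Left, log2 fold change from E6.5 to E7.5 of each tested histone gene by class, in null and in WT epiblasts. Right, summed CPM of the 71 histone genes in each library, with the 3 E7.5 null libraries at 12900 to 15800 CPM, all above the E6.5 null libraries at 6130 to 10900 CPM.

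Among the other higher calls were Zeb2, Sh3pxd2a, Fst and Rn7sk. Zeb2, a repressor of E-cadherin that acts in epithelial-mesenchymal transition (chr2:44983632-45117395, minus strand), was at 0.965 to 7.69 CPM in E6.5 null epiblasts, with a median of 3.55 CPM, and at 22.7, 18.6 and 64.7 CPM at E7.5. The groups did not overlap, and Zeb2 rose by a log2 fold change of 3.10 (SE 0.516, adjusted p = 0.0301), against 3.54 in WT, where it was also called. Its antisense neighbour Zeb2os overlaps it on the other strand. Sh3pxd2a, the scaffold Tks5 of invasive podosomes (chr19:47260174-47464401, minus strand), went from 20.5 to 31.4 CPM (median 25.4 CPM) to 56.1, 66.5 and 76.3 CPM, a log2 fold change of 1.39 (SE 0.164, adjusted p = 0.0177), and was also called in WT at 1.03. Among the 20 calls Sh3pxd2a was the one called under the most alternatives, 21 of 26.

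Fst encodes follistatin, a secreted protein that binds activin (chr13:114452290-114458951, minus strand). It lay at 7.59 to 47.7 CPM at E6.5, with a median of 15.4 CPM, and at 97.2, 117 and 138 CPM at E7.5, so every E7.5 null library was above the E6.5 range. The log2 fold change was 2.63 (SE 0.419, adjusted p = 0.0301), and 0.64 in WT (adjusted p = 0.332), where E6.5 epiblasts already had a median of 56.7 CPM. The difference between the days, 1.99, did not pass the test (adjusted p = 0.168). Rn7sk, the small nuclear RNA that holds the elongation factor P-TEFb inactive, rose from a median of 723 CPM (655 to 1240 CPM) to 1780, 1870 and 1350 CPM (log2 fold change 1.02, adjusted p = 0.0301) and in WT by 1.25. It shares sequence with 5 other annotated genes.

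Rfx3 and Cfap44 were also called higher. Rfx3, a transcription factor of ciliary genes (chr19:27761721-28011166, minus strand), was at 20.7 to 54.7 CPM in E6.5 null epiblasts (median 42 CPM) and at 108, 103 and 99.8 CPM at E7.5, a log2 fold change of 1.41 (SE 0.234, adjusted p = 0.0301). In WT the change was 0.27 without a call, and the difference between the days, 1.14, passed the test (adjusted p = 0.0275). Cfap44, a protein of cilia and flagella (chr16:44394796-44482428, plus strand), was at 0 to 0.0926 CPM at E6.5, at or under 3 counts in each library, and at 5.1, 1.22 and 9.43 CPM at E7.5. It was at least 63.3-fold higher when E6.5 is set at 3 counts per library (adjusted p = 0.0301), and it was called in WT as well. Among 47 tested genes whose names start with Cfap, Dnah, Dnai or Ift, a group chosen after the values of Rfx3 and Cfap44 were seen, 39 had a positive log2 fold change, 11 had E7.5 null libraries above all E6.5 null libraries (4.02% of all genes) and 1 was called (0.0668% of all genes were called higher). The median was 0.52 in the null and 0.79 in WT. Cfap126 was at 0 to 0.144 CPM and then at 2.23, 1.06 and 5.62 CPM, and Dnah9 at 0 to 0.484 CPM and then at 0.9, 0.84 and 4.87 CPM. Neither passed the test, with adjusted p-values of 0.11 and 0.444.

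The lower calls included the pluripotency genes Dppa4 and Dppa5a. Dppa4, a chromatin-bound protein of pluripotent cells (chr16:48283733-48294237, plus strand), was at 1.83 to 22.3 CPM in E6.5 null epiblasts, with a median of 5.1 CPM, and had no count in E7.5 null 1, 2 and 3. It was at least 92.8-fold lower when E7.5 is set at 3 counts per library (adjusted p = 0.0265), and it was called lower in WT. Dppa5a, an RNA-binding protein of the same cells, went from a median of 6.61 CPM (2.73 to 12 CPM) to 0.1, 0 and 0 CPM (adjusted p = 0.0301), and it was called lower in WT, with a median of 0 CPM at E7.5. Dppa4 and Dppa5a share sequence with 2 and 7 other genes, mostly pseudogenes. Tuba3a, an alpha-tubulin, had a median of 5.26 CPM (1.52 to 17.3 CPM) at E6.5 and no count at E7.5, at least 97.5-fold lower (adjusted p = 0.0232), and its near copy Tuba3b can share its reads.

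The remaining lower calls were Gm17067, Gm6871, Fmr1nb and Plekha2. Gm17067 fell by 3.76 and Gm6871 by 4.0 on the log2 scale, and both were also called lower in WT, at -2.88 and -4.20. Plekha2, an adaptor that binds membrane phosphoinositides (chr8:25039144-25102376, minus strand), fell from 23.6 to 73.7 CPM (median 42.7 CPM) to 9.63, 7.5 and 10.8 CPM, a log2 fold change of -2.25 (SE 0.387, adjusted p = 0.0382). In WT it was at a median of 25 CPM at E6.5 and 29.7 CPM at E7.5, and the difference between the days was -2.13 (adjusted p = 0.0315). Fmr1nb, the X-linked neighbour of Fmr1, was at 5.54 to 32.3 CPM and then at 0.325, 0.596 and 0 CPM, with a difference from the WT day of -4.43 (adjusted p = 0.0202). Its highest E6.5 values came from E6.5 null 3, 4 and 8, the libraries with the highest visceral endoderm sums. With those markers as a term in the null fit, Fmr1nb and Plekha2 were not called. Zeb2, Fst, Rfx3, Gm20632 and Gm6871 lost their calls there too, with their signs unchanged. Dppa4, Dppa5a, Tuba3a, Gm17067, Sh3pxd2a, Rn7sk and Cfap44 kept theirs. Both Plekha2 and Fmr1nb overlap annotated genes on the other strand.

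**Figure D2:**
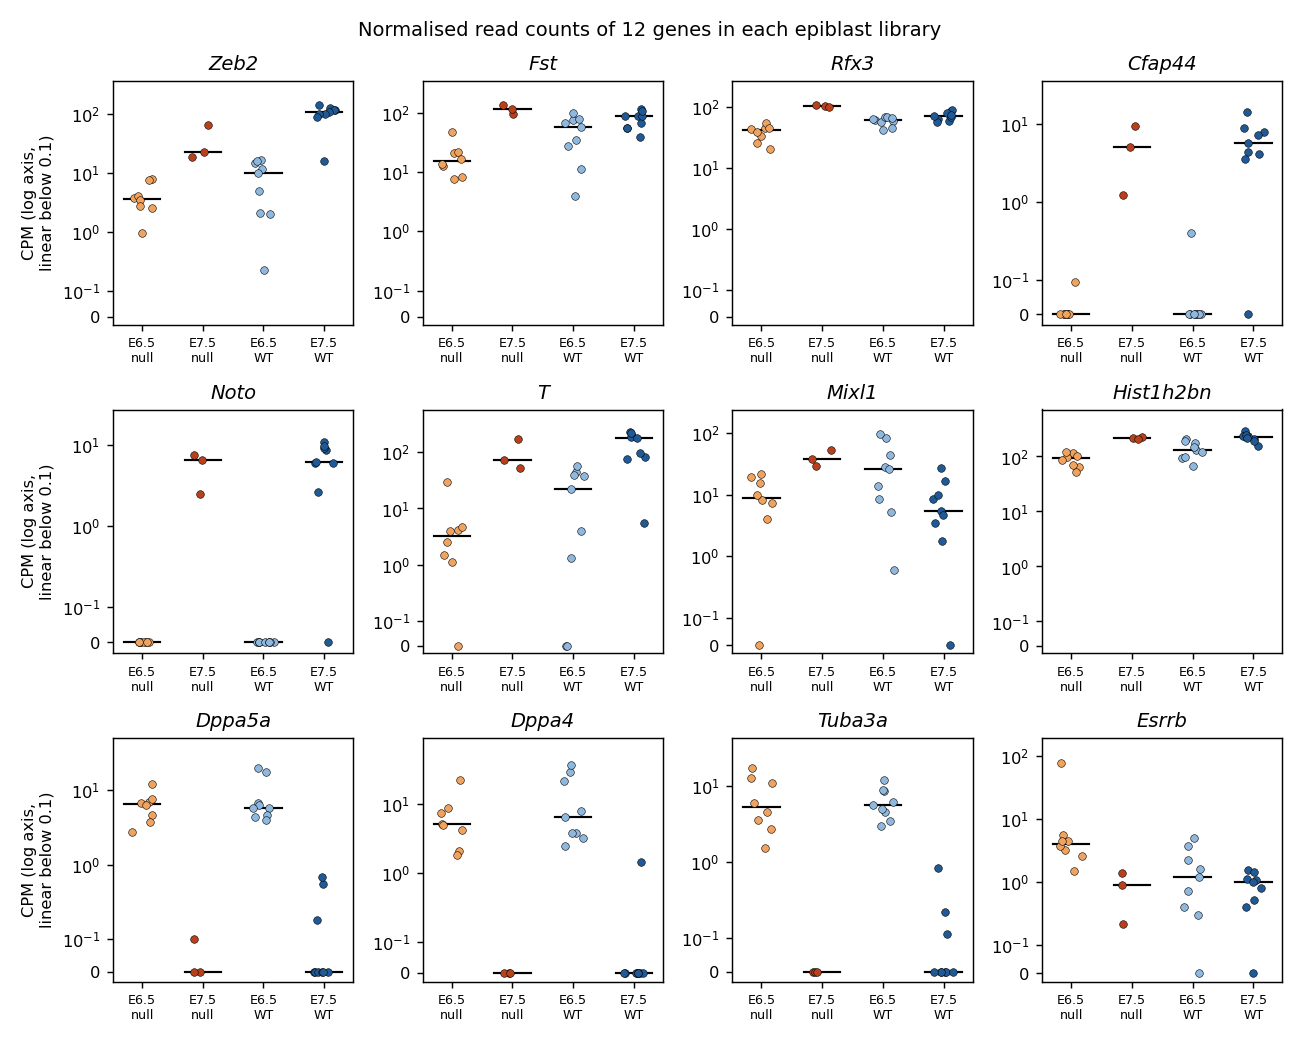
CPM of 12 genes in each library of the 4 groups, E6.5 null, E7.5 null, E6.5 WT and E7.5 WT, with a bar at the group median. Zeb2, Fst, Rfx3 and Hist1h2bn sit higher in all 3 E7.5 null libraries than in any E6.5 null library, and Dppa4 and Tuba3a are at 0 in E7.5 null.

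Of the naive pluripotency list, 12 of 14 genes were tested and all 12 had negative log2 fold changes in the null, with a median of -2.43 against 1.13 in WT. The null median was -1.74 without E6.5 null 1 and -1.68 against the E6.5 null libraries under 40000000 counts. Dppa5a was called, where 0.036% of all genes were called lower. E7.5 null libraries lay below all those of E6.5 for 4 members (2% of all genes), namely Dppa5a, Esrrb, Tfcp2l1 and Zfp42. Zfp42, the pluripotency marker Rex1, was at 1.62 to 58.1 CPM (median 6.53 CPM) and then at 0.325, 0.758 and 0 CPM. Tfcp2l1, a direct STAT3 target in embryonic stem cells, was at 5.47 to 51.9 CPM (median 17.2 CPM) and then at 2.2, 1.65 and 4.99 CPM (log2 fold change -3.06, adjusted p = 0.178). Its level in WT ranged from 0.908 to 34.3 CPM at E6.5 and from 1.5 to 34.4 CPM at E7.5, so there the stages overlapped throughout. The highest Esrrb value, 78.5 CPM, came from E6.5 null 1, the library with the highest extraembryonic ectoderm sum, and Esrrb was at 1.51 to 5.63 CPM in the other 7. The highest Zfp42 value came from E6.5 null 1 too, and the highest Tfcp2l1 values from E6.5 null 4, 1 and 3. E6.5 null 3 and 4 had the highest visceral endoderm sums. The naive factors Tbx3 and Klf5 and the threonine dehydrogenase gene Tdh overlapped between the stages, at 5.05 to 28.4 CPM, 2.63 to 5.28 CPM and 3.71 to 7.08 CPM at E7.5. DESeq2 called 5 of the list lower, where it called 1.45% of all genes lower.

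Genes of core and primed pluripotency had a median log2 fold change of 0.02 in the null and of -1.31 in WT. Of the 18 tested, 1 was called lower in the null, Dppa4 (0.036% of all genes), and 10 were called lower in WT (3.09%). The test of the difference called 1 of the 18 higher in the null than in WT, Dnmt3a (0.185% of all genes). Pou5f1, the factor OCT4, was at 192 to 576 CPM (median 512 CPM) at E6.5 and at 731, 713 and 594 CPM at E7.5, above the whole E6.5 range (log2 fold change 0.59, adjusted p = 0.63). In WT it was at a median of 627 CPM and then 313 CPM, at -0.96 (adjusted p = 0.00371). The de novo methyltransferase Dnmt3b was at a median of 3540 CPM and then at 4350, 4640 and 3380 CPM, at 0.21 in the null and -1.41 in WT. Its relative Dnmt3a was at 231 to 423 CPM and then at 396, 417 and 317 CPM, and here the difference between the days, 1.29, passed the test (adjusted p = 0.0204). Sall4, a zinc finger factor, was at 491 to 698 CPM and then at 766, 767 and 878 CPM, and its co-expressed RNA-binding protein Lin28a was at 511 to 799 CPM and then at 666, 688 and 699 CPM. The primed genes Fgf5, Utf1 and Otx2, called lower in WT at -2.35, -2.69 and -1.41, were at 0.03, -0.15 and -0.10 in the null. For these 3 the difference itself did not pass the test, with adjusted p-values of 0.296, 0.154 and 0.11.

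Primitive streak genes had a positive median over the null day. Of 19 genes in the list 17 were tested and 0 were called, 15 had positive log2 fold changes and 9 had E7.5 null libraries above the whole E6.5 null range (4.02% of all genes). The median was 1.71, against 1.41 in WT. In WT 5 of 17 were called higher and 3 lower (5.74% and 3.09% of all genes), so the members did not move alike there. The median difference of the days was 1.03. Against the 5 E6.5 null libraries under 40000000 counts, T, Eomes, Wnt3, Wnt3a and Apln were called higher, as were 0.558% of all genes. T, or Brachyury, the factor that marks the streak (chr17:8434423-8442496, plus strand), was at 0 to 29.7 CPM at E6.5, with a median of 3.21 CPM, and at 51.6, 72.1 and 172 CPM at E7.5. Every E7.5 null library lay above every E6.5 null library, and the log2 fold change was 4.03 (SE 1.12, adjusted p = 0.272), or 5.15 (adjusted p = 0.0095) against the shallower E6.5 libraries. WT epiblasts reached a median of 181 CPM at E7.5.

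Other streak genes were read as follows. Mixl1, a homeobox gene of the streak, was at 0 to 21.9 CPM and then at 29.1, 53.3 and 37.9 CPM, while in WT its median went from 25.8 CPM to 5.52 CPM. Mesp1, the factor of the first mesoderm to leave the streak, was at 0 to 2.08 CPM and then at 11.1, 31.4 and 76.6 CPM (log2 fold change 7.24, adjusted p = 0.15). Wnt3a, a ligand of the late streak, had no count in any E6.5 null library and was at 0.675, 0.758 and 7.34 CPM at E7.5, at least 35.3-fold higher (adjusted p = 0.136). Eomes, a T-box factor needed for early mesoderm and endoderm, was at 101 to 523 CPM and then at 340, 423 and 398 CPM, within the E6.5 range, where WT fell from a median of 296 CPM to 12.4 CPM (log2 fold change -2.93, adjusted p = 0.0124). Fgf8, the FGF ligand of the streak, was at 8.09 to 169 CPM and then at 33.7, 53.2 and 21.1 CPM. Lhx1, a factor of the early mesoderm and the organizer, was at 0.122 to 124 CPM and then at 82.4, 60.4 and 117 CPM. The tailbud factor Nkx1-2 stood at 6.18, 4.77 and 13 CPM at E7.5, above its E6.5 null range of 0 to 1.75 CPM, where E7.5 WT epiblasts had a median of 132 CPM.

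Mesoderm genes gave many calls in WT and 0 in the null. Of 27 genes in the list, 22 were tested in the null, 0 were called and 3 were apart upward (4.02% of all genes). In WT 22 of 26 were called higher (5.74% of all genes). The median log2 fold changes were 1.13 in the null and 4.14 in WT. The test of the difference called 2 members lower in the null than in WT (0.258% of all genes). Kdr, a receptor of early blood and vessel mesoderm, was at 0 to 1.65 CPM and then at 2.6, 11.8 and 39.2 CPM, against a median of 58 CPM in E7.5 WT. Pdgfra, a receptor of mesoderm, overlapped between stages at 3.46 to 36.3 CPM and 5.7, 23.1 and 54.6 CPM, against a median of 152 CPM in E7.5 WT. Msgn1, a factor of presomitic mesoderm, had no count in E7.5 null epiblasts and a median of 18.1 CPM in E7.5 WT, and its difference passed the test (adjusted p = 0.0441). Gata4 and Hand1, which the visceral endoderm and the extraembryonic ectoderm also express, were at up to 139 and 226 CPM at E6.5 and at 13.6, 8.8 and 40.7 CPM and 1.65, 1.95 and 20.5 CPM at E7.5.

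E7.5 null 3 stood apart from E7.5 null 1 and 2 in the mesoderm genes. Each library was given a list value, its mean log2(CPM + 1) over the members minus the mean of the E6.5 null libraries. For mesoderm these values were 0.22, 0.48 and 1.91 in E7.5 null 1, 2 and 3, against -0.30 to 0.70 in E6.5 null and a median of 3.24 in E7.5 WT. Dll1, a Notch ligand of paraxial mesoderm, was at 3.1, 5.28 and 55.4 CPM, and Foxc2, a mesoderm factor, at 0.325, 0.433 and 17 CPM. For streak genes the values were 1.47, 1.78 and 2.51, with E6.5 null at -1.15 to 0.48 and a median of 1.81 in E7.5 WT. E7.5 null 3 also held the least Otx2 (92.9 CPM against 161 and 166 CPM), Fgf5 (80 CPM against 124 and 138 CPM) and Nodal (5.26 CPM against 14.7 and 17 CPM) of the 3. It held the highest sum of maternal blood markers, 26.5 CPM against 7.48 and 4.52 CPM, and 7 of these 12 markers had counts in it, as they did in E7.5 null 1. It was also the one E7.5 null library with Y-linked transcripts. The part of these in the mesoderm values was not tested.

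**Figure D3:**
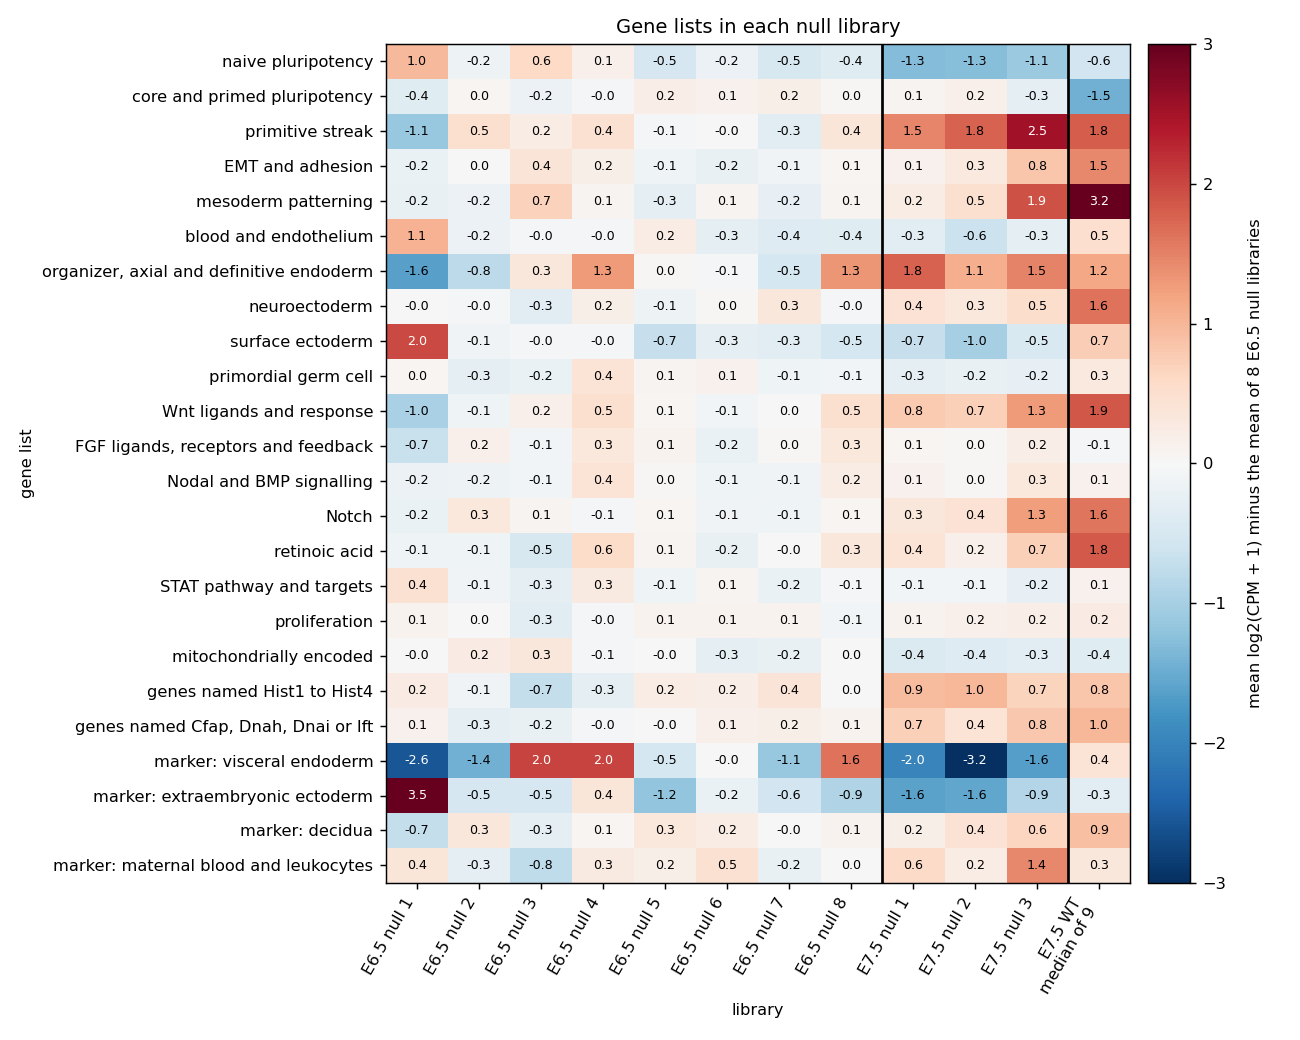
List values, mean log2(CPM + 1) relative to the E6.5 null mean, for each gene list in the 11 null libraries and as the median of E7.5 WT. Streak values are 1.47 to 2.51 in E7.5 null against at most 0.48 in E6.5 null, and the mesoderm value of E7.5 null 3, 1.91, exceeds those of E7.5 null 1 and 2.

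Genes of the organizer, axial mesoderm and definitive endoderm included 5 with E7.5 null libraries above the whole E6.5 null range, Noto, Chrd, Foxj1, Trh and Apela. Among all genes 4.02% were apart in this way. Of the 17 list members tested, 0 were called and 12 had positive log2 fold changes. The median of the list was 1.01 in the null (0.66 against the shallower E6.5 libraries) and 1.32 in WT. Noto, the homeobox gene of the node and notochord (chr6:85423886-85428877, plus strand), had no count in all 8 E6.5 null libraries and was at 6.55, 2.47 and 7.54 CPM at E7.5. That is at least 66.5-fold higher with E6.5 set at 3 counts per library, at an adjusted p of 0.0609 with edgeR and of 3.25e-09 with DESeq2. E7.5 WT epiblasts had a median of 6.23 CPM. Foxj1, the master factor of motile cilia, was at 0 to 9.42 CPM (median 1.84 CPM) and then at 42.2, 21.9 and 41.9 CPM, and Chrd, the BMP antagonist chordin, at 0 to 6.02 CPM and then at 39.9, 27.8 and 43.5 CPM. Both were apart, without passing the test (adjusted p-values of 0.313 and 0.29), and E7.5 WT medians were 19.7 and 14 CPM.

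Trh, the precursor of thyrotropin-releasing hormone, was at 8.87 to 63.1 CPM (median 40.6 CPM) and then at 224, 176 and 95.1 CPM, a log2 fold change of 2.06 (adjusted p = 0.0762) against 0.05 in WT. Foxa2, a factor of the node and endoderm, overlapped at 1.54 to 44.4 CPM and 65.9, 48.2 and 37.9 CPM. Shh, the morphogen of the notochord, had no count in any null library and a median of 9.04 CPM in E7.5 WT, where the difference did not pass the test (adjusted p = 1). Sox17, which marks definitive and visceral endoderm, was at 3.08 to 33.6 CPM and then at 8.95, 5.04 and 5.69 CPM, while WT went from a median of 0.728 CPM to 27.2 CPM. Among E6.5 null libraries, 4 and 8 had the highest list values for this group (1.29 and 1.32) and are also among the 3 with the highest visceral endoderm sums. The visceral endoderm expresses several members, and with its markers as a term in the fit the median of the list was 3.0.

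Neuroectoderm and surface ectoderm genes gave 0 calls in the null. Of 20 neuroectoderm genes tested in the null, 3 were apart upward (4.02% of all genes) and En1 downward (2%). The null median was 0.89, or 0.57 against the shallower E6.5 libraries. In WT 11 of 16 were called higher (5.74% of all genes), with a median of 2.83. Msi1, an RNA-binding protein of neural progenitors, was at 74.2 to 147 CPM and then at 193, 177 and 178 CPM (log2 fold change 0.60, adjusted p = 0.344), and the intermediate filament gene Nes was at 86 to 150 CPM and then at 144, 140 and 102 CPM. Irx3, a homeobox gene called higher in WT at 5.57, was at 10.9, 6.83 and 29.2 CPM in E7.5 null and at up to 297 CPM in E6.5 null, and Ptn, a growth factor, at 0 to 14.3 CPM and then at 10.8, 7.4 and 13.3 CPM. Of 11 surface ectoderm genes, 0 were called in the null and 6 were called higher in WT (5.74% of all genes). The medians were -1.40 in the null and 2.08 in WT. The null median was -0.77 without E6.5 null 1, whose list value of 1.99 lay above the -0.70 to -0.03 of the other 7 E6.5 null libraries. The simple keratin genes Krt8 and Krt18, called higher in WT, were at 84.5, 42.6 and 104 CPM and at 77.7, 57.1 and 76.5 CPM in E7.5 null. E7.5 null 2 lay below the E6.5 null ranges of 61.7 to 262 CPM and 71.9 to 454 CPM, and the other 2 libraries lay inside them. Their differences of -3.03 and -2.46 passed the test (adjusted p-values of 0.0448 and 0.0478). The visceral endoderm and the extraembryonic ectoderm also express these keratins.

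In the list of epithelial-mesenchymal transition and adhesion genes, 20 were tested, 1 was called (Zeb2) and 4 were apart upward. Among all genes 0.0668% were called higher and 4.02% were apart upward. The median of the list was -0.20, against 1.11 in WT. Snai1, which represses E-cadherin in the streak, was at 0.396 to 7.01 CPM and then at 7.93, 16.3 and 38.9 CPM. The mesenchymal cadherin Cdh11 was at 0 to 7.28 CPM and then at 18.5, 31 and 43.3 CPM, and the intermediate filament gene Vim at 11.4 to 35.9 CPM and then at 50.4, 40.6 and 54.5 CPM. All 3 were apart between the stages, and none passed the test (adjusted p-values of 0.224, 0.328 and 0.151). Cdh1, which encodes E-cadherin, was at 529 to 956 CPM and then at 654, 591 and 567 CPM, and Fn1, which encodes fibronectin, at 94.4 to 331 CPM and then at 319, 476 and 1350 CPM. Twist1, a mesenchymal factor, was at 2.41 to 12.5 CPM and then at 0.875, 2.71 and 5.23 CPM, where WT was called higher at 2.77, and the difference of -3.45 passed the test (adjusted p = 0.0441).

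The Wnt list had 20 tested members, of which 0 were called, 14 had positive log2 fold changes and 6 were apart upward (4.02% of all genes). Its median was 0.65 in the null and 1.18 in WT. Lef1, a transcription factor and target of the pathway, was at 37.7 to 98.4 CPM (median 65.7 CPM) and then at 118, 125 and 183 CPM (log2 fold change 1.0, adjusted p = 0.143). In WT it was at a median of 128 CPM and then 137 CPM. The feedback inhibitor Nkd1 was at 1.5 to 7.18 CPM and then above that range, with 16.6 and 36.5 CPM in E7.5 null 2 and 3, against a median of 72.1 CPM in E7.5 WT. Tcf7l1 and Tcf7, its other transcription factors, overlapped between stages, at log2 fold changes of 0.06 and -0.06, as did the secreted inhibitor Sfrp1 at -0.29. Against the shallower E6.5 libraries, 6 members were called higher, where 0.558% of all genes were.

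Among the lists, FGF pathway genes held the most calls of the difference between the null and the WT day. Of 18 tested, 0 were called in the null and the median was -0.01. In WT 5 were called higher and 7 lower (5.74% and 3.09% of all genes), with a median of -0.68. The test of the difference called 4 members higher in the null than in WT (0.185% of all genes were called in that direction), namely Dusp6, Spry2, Spry4 and Etv5, all induced by ERK signalling. Dusp6, an ERK phosphatase, was at 37.6 to 89.5 CPM (median 65.9 CPM) in E6.5 null and at 103, 95.4 and 77.8 CPM in E7.5 null, while WT went from a median of 94.8 CPM to 37.4 CPM. Its null change was 0.49, its WT change -1.20 and the difference 1.69 (adjusted p = 0.00841). For the feedback inhibitors Spry2 and Spry4 the differences were 1.68 and 1.83 (adjusted p-values of 0.0199 and 0.0302), and for the transcription factor Etv5 it was 1.57 (adjusted p = 0.0441). Etv5 was at 133 to 291 CPM and then at 235, 234 and 203 CPM in the null. The receptor Fgfr1 was at 106 to 169 CPM and then at 172, 199 and 184 CPM (log2 fold change 0.44, adjusted p = 0.315), and the ligand Fgf3 at 0 to 0.415 CPM and then at 2.4, 6.88 and 24.8 CPM (adjusted p = 0.0866).

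Nodal and BMP genes split in direction. Of 19 tested, 0 were called in the null, 3 were apart upward (Bmp7, Id4 and Chrd) and 3 downward (Gdf3 and Smad7 among them). Among all genes 4.02% were apart upward and 2% downward. The median of the list was -0.06, against 1.06 in WT. Smad7, an inhibitory SMAD, was at 79.3 to 191 CPM (median 119 CPM) and then at 56.3, 62.1 and 17.7 CPM (log2 fold change -1.42, adjusted p = 0.179), and it was called lower in WT at -1.77. Tdgf1, the Nodal co-receptor Cripto, kept 64.3, 81 and 113 CPM at E7.5 within its E6.5 range of 49.4 to 167 CPM, while its WT median went from 112 CPM to 0.481 CPM. The WT fall of Tdgf1 was called at -4.36, and its difference of 4.29 did not pass the test (adjusted p = 0.0949). Id3, a BMP target, was at 5.67 to 39.1 CPM and then at 48.4, 34.9 and 39.8 CPM.

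Notch genes had 12 tested members in the null, of which 0 were called and Jag1 alone was apart upward (4.02% of all genes). Their medians were 0.90 in the null (0.54 against the shallower E6.5 libraries) and 2.08 in WT. The ligand Jag1 was at 11.7 to 25.9 CPM and then at 30.4, 33.5 and 41.2 CPM (log2 fold change 1.08, adjusted p = 0.113; 1.23 and 0.00371 against the shallower E6.5 libraries). The receptors Notch1, Notch2 and Notch3 had log2 fold changes of 0.80, -0.12 and -0.50, and the target Hes1 one of 0.16. For retinoic acid 15 genes were tested and 0 called, with medians of 0.12 in the null and 1.94 in WT. Its receptors Rarg and Rara stood at 0.12 and -0.11, and Cyp26a1, which degrades retinoic acid, at -0.20.

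Genes of blood and vessels, of germ cells and of the HOX clusters gave 0 calls in the null. The 8 primordial germ cell genes tested had a median of -0.68, against 0.73 in WT. Of 12 blood and endothelium genes tested the median was -1.65, but -0.90 without E6.5 null 1 and 0.05 against the E6.5 libraries under 40000000 counts. Runx1, a factor of blood formation, was at 3.67 to 37.3 CPM and then at 3.5, 5.36 and 4.1 CPM. Gata2, a factor of blood progenitors and of trophoblast, was at 60.4, 11.7 and 7.37 CPM in E6.5 null 1 to 3, at 0.0719 to 1.68 CPM in the other 5 and at 0.7, 0.65 and 1.89 CPM at E7.5, so the last 2 sets overlapped. Of 39 HOX genes, 5 passed the filter on low counts in the null.

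STAT pathway genes and their targets gave 0 calls among 21 tested, with a median of -0.21 against 0.25 in WT. Pim1, a kinase gene and STAT target, was at 30.2 to 103 CPM and then at 20.2, 20.6 and 29 CPM, below the whole E6.5 range (log2 fold change -1.36, adjusted p = 0.256). Its relative Pim2 was at 120 to 293 CPM and then at 447, 415 and 282 CPM, while WT was called lower at -1.35, a difference of 2.1 (adjusted p = 0.0448). The feedback inhibitor Socs2 was at 11.2 to 65.4 CPM and then at 71, 74.1 and 62.8 CPM against a called fall in WT of -1.30, a difference of 1.88 (adjusted p = 0.0441). Jak2, a kinase that activates STAT proteins, was at 2.45 to 30 CPM (median 10.3 CPM) and then at 3.08, 3.22 and 3.13 CPM, while WT rose by 1.69, and the difference was -3.72 (adjusted p = 0.0199). Its highest E6.5 null values came from E6.5 null 3, 4 and 8, the libraries with the highest visceral endoderm sums. The part of visceral endoderm in this difference was not tested. The kinase Jak1 had a null change of -0.26.

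Proliferation genes gave 0 calls among 22 tested, with medians of 0.07 in the null and -0.10 in WT. The dividing-cell marker Mki67 was at 899 to 1350 CPM and then at 935, 952 and 901 CPM, and the topoisomerase gene Top2a at 685 to 904 CPM and then at 816, 835 and 775 CPM. Over the same libraries the 71 histone genes had the median of 0.90 given above. All 13 mitochondrially encoded protein genes had negative log2 fold changes in the null and 8 were apart downward (2% of all genes). Their medians were -0.43 in the null and -0.33 in WT, with 0 calls in either. For mt-Co1, a subunit of cytochrome oxidase, the values were 2550 to 3430 CPM and then 2310, 2150 and 2190 CPM (log2 fold change -0.41, adjusted p = 0.103).

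**Figure D4:**
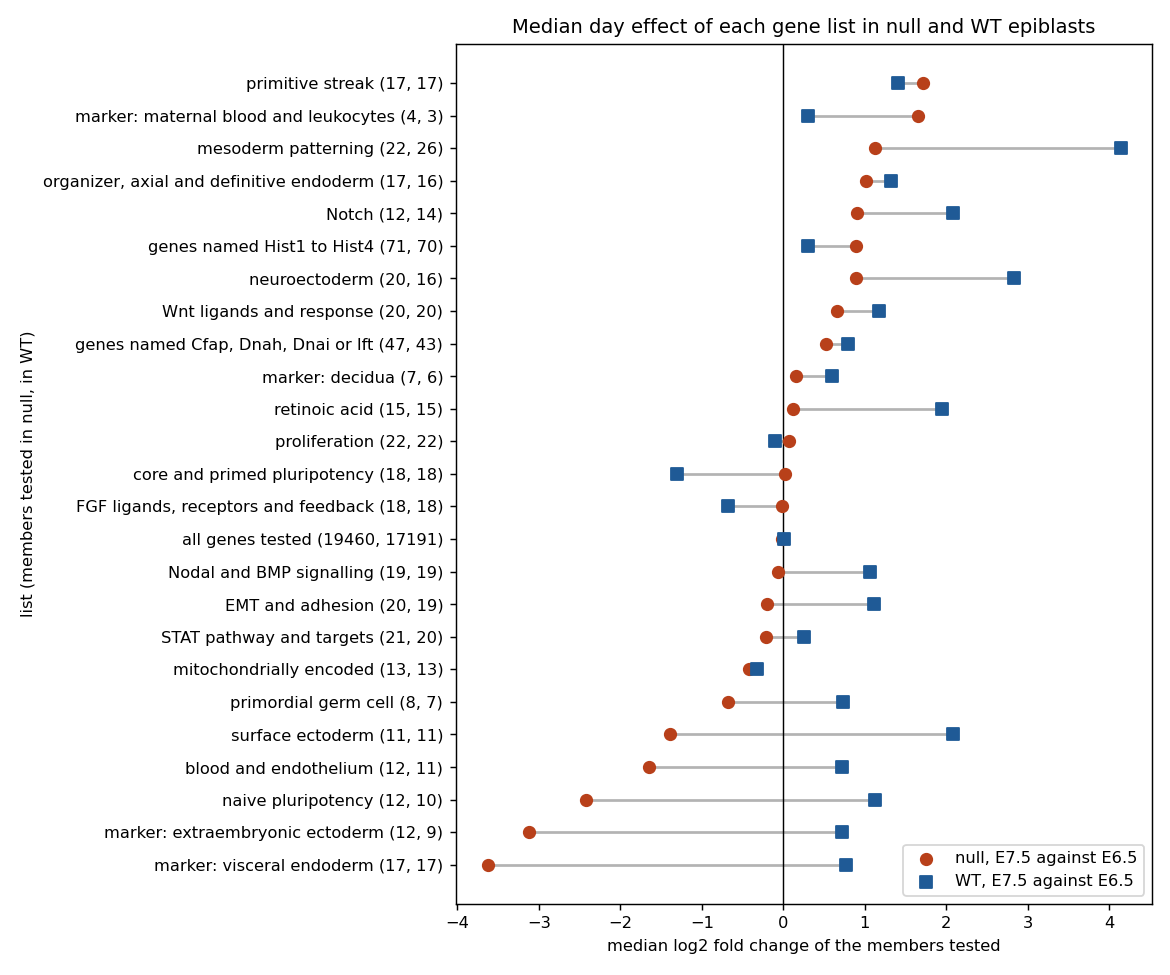
Median log2 fold change from E6.5 to E7.5 of each gene list, in null (circles) and in WT (squares), joined by a grey line. Null and WT lie apart for mesoderm (1.13 in null, 4.14 in WT) and for core and primed pluripotency (0.02 and -1.31). The medians lie close together for primitive streak genes (1.71 and 1.41), although in WT 5 members were called higher and 3 lower.

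The difference of the days was tested gene by gene over the 29 libraries. Of 22122 genes, 98 were called (0.443%), 41 with the null change above the WT change (0.185%) and 57 below it (0.258%), and 123 (0.556%) had an adjusted p below 0.05 at any fold. Leaving out replicate 1 or 2 of E7.5 null gave 0 calls (2550 and 2484 genes at an unadjusted p below 0.05), and leaving out replicate 3 of either WT stage gave 466 at E6.5 and 482 at E7.5. Without E6.5 WT 1 there were 102 calls, and without any other single WT library 26 to 46. The latter kept 26 to 41 of the 98 calls. Msgn1, Twist1, Etv5, Socs2, Pim2, Krt8 and Krt18 had adjusted p-values close to the threshold of 0.05. Among genes called in either day, the 10 with the smallest p were Dusp6, Fndc3b, Fhdc1, Stard8, Cpm, Ftx, Jak2, Rhou, Rgma and Fmr1nb. Rgma, a membrane co-receptor for BMP, rose in WT from a median of 5.78 CPM to 115 CPM and was at 3.78 to 23.7 CPM and then at 15.7, 19.7 and 40 CPM in the null (difference -3.18, adjusted p = 0.0199). Stard8, which encodes a GTPase-activating protein, was at 7.65 to 31.3 CPM and then at 0.75, 2.63 and 10.1 CPM in the null, while it rose in WT by 3.20 (difference -5.32, adjusted p = 0.0199). Ftx, a non-coding RNA gene next to the X inactivation centre, was at 31.9 to 75.7 CPM and then at 61.9, 66 and 27.8 CPM in the null, while it fell in WT by 1.98 on the log2 scale (difference 1.96, adjusted p = 0.0199). The lowest null value of each stage, in E6.5 null 8 and E7.5 null 3, came from a library with Y-linked transcripts, and the part of sex in the difference was not tested. Fndc3b, a fibronectin-domain protein, was at 18.3 to 73.2 CPM and then at 14.3, 15.9 and 16.8 CPM in the null, against a rise of 1.35 in WT (difference -2.61, adjusted p = 0.00863). Stard8 and Fndc3b were highest in E6.5 null 3, 4 and 8 among the E6.5 null libraries, those with the highest visceral endoderm sums. The part of visceral endoderm in these differences was not tested. The formin-like Fhdc1, the carboxypeptidase Cpm and the small GTPase Rhou had differences of -3.70, -2.81 and -1.81, all with a called rise in WT.

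Genes called in WT were followed in the null, from libraries that the WT test did not use. Of 953 genes called higher in WT and tested in the null, the median log2 fold change was 1.95 in WT and 0.46 in the null, and 13.6% had E7.5 null libraries above all E6.5 null libraries, against 4.02% of all genes. Of 531 called lower in WT, the medians were -1.57 and -0.59, and 13.7% were apart downward, against 2% of all genes. In 71.2% of these 1484 genes the null change had the sign of the WT change.

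Each library was also given a position between the WT stages, scaled so that the E6.5 WT mean is at 0 and the E7.5 WT mean at 1, over the 500 genes with the largest difference between those means, each WT library being left out of the means when it was placed. The 8 E6.5 null libraries had a mean position of 0.127 with an SD of 0.0964, and the 3 of E7.5 null were at 0.197, 0.147 and 0.501. The difference of the means, 0.155, did not pass the exact permutation test (two-sided p = 0.103, the smallest possible being 0.00606). Without E7.5 null 3 the difference was 0.0449. E6.5 null 3, 4 and 8, which have the highest visceral endoderm sums, lay at 0.25, 0.238 and 0.222, above the other 5 E6.5 null libraries. The 9 E7.5 WT libraries lay at 0.990 ± 0.347 (SD), with E7.5 WT 3 at 0.103, among the E6.5 libraries. With log2 CPM in place of regularized log values the difference was 0.392 (exact permutation p = 0.00606).

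**Figure D5:**
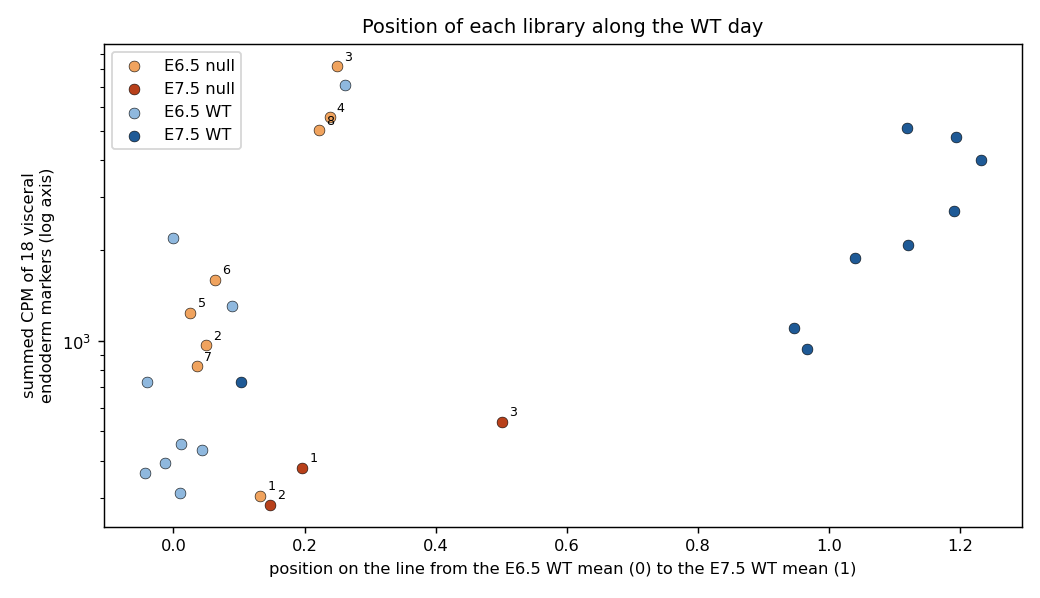
Position of each library between the WT stages (0 is the E6.5 WT mean, 1 the E7.5 WT mean) against its summed CPM of visceral endoderm markers (log axis), with null libraries numbered. E7.5 null 1 and 2 lie at 0.197 and 0.147, inside the E6.5 null range that reaches 0.25, and E7.5 null 3 lies at 0.501.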

How the data were processed

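RNA-seq of single epiblasts was analysed from deposited gene counts. The authors trimmed reads with Trim Galore, aligned them to GRCm38/mm10 with HISAT2 and counted genes with StringTie, and the deposited counts are whole and not normalized. The annotation release and strand setting are not given in the sources used here. Positions came from GENCODE vM21, in which 47224 of the 47643 listed genes had an entry. The series holds 39 samples, of which the 4 epiblast stem cell samples were not used and the 6 E5.5 epiblasts entered 1 alternative only.

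Genes were tested with edgeR 4.0.16 (R 4.3.3): TMM, filterByExpr by group (minimum count 10, minimum total 15), robust quasi-likelihood dispersions, two-sided, with p-values adjusted by Benjamini-Hochberg across every tested gene. Calls needed a change of more than 1 on the log2 scale and an adjusted p below 0.05. CPM uses TMM factors from the 29 E6.5 and E7.5 libraries. A SE is the log2 fold change divided by the square root of F. Where no library of a group had more than 3 counts, the fold is a bound against 3 counts per library, and such limits cover counting error only. E6.5 and E7.5 libraries are separate epiblasts, and nothing says whether they share litters. The 11 null libraries, 18 WT libraries and their difference were fitted as separate models, the last over 29 libraries. Positions used blind rlog values of DESeq2 1.42.0. Lists were described by counts and medians, with no test.

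Members and lists were chosen with earlier results of these data known. Named genes are Stat3, the calls whose groups do not overlap, called list members, up to 4 further members of each list by mean CPM, and the 10 genes with the smallest p of the difference among those called in either day. Other genes named were chosen after their values were seen, and a few genes are not reported here. Near copies were sought with blastn 2.17.0+. The tests were tested on simulated data. Replicate numbers are shared by the stages, but nothing says that they mark shared litters, so they were not used as pairs. Deviations of same-numbered null libraries correlated at 0.0501, 0.0349 and 0.156, each the best match for its number, which leaves pairing undecided. Alternatives were DESeq2, its size factors, no filter or a mean count of 50, leaving out genes over 1% of counts, voom of limma 3.58.1 with quality weights, a replicate block, all 35 epiblast libraries, no robust option, marker or Y gene covariates, depth groups at 40000000 counts and leaving out each library. The alternatives with 35 libraries, no robust option, covariates or depth groups were not run for the WT day or the difference. Figures used matplotlib 3.10.9 and Python 3.11.15.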

Additional observations from a re-analysis of the deposited data

Results flagged for a closer look

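A sample stood far from the rest of its group in 14 of 52 groups examined. The cutoff gives about 1 in 20 by chance only for normally distributed values in independent groups. These groups share libraries and include values at 0, so that rate is no measure for them. In E6.5 null epiblasts these were Fst in E6.5 null 2 (47.7 CPM), Cfap44 in E6.5 null 4 (0.0926 CPM), Rn7sk in E6.5 null 3 (1240 CPM) and Dppa4 in E6.5 null 1 (22.3 CPM). E6.5 null 1 also had the total count farthest from the others (79013960), an extraembryonic ectoderm sum of 1700 CPM, and list values of 1.05 for blood and endothelium, 1.99 for surface ectoderm and -0.96 for Wnt genes. The decidua sum was 108 CPM in E6.5 null 2, and in E6.5 null 3 the maternal blood sum was 14.0 CPM and the mesoderm value 0.70. Among WT libraries, E6.5 WT 3 lay at 0.262 and E7.5 WT 3 at 0.103 in position between the WT stages.

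The null day and the WT day differed by test in 10 genes named for their small p: Dusp6 (1.69) and Ftx (1.96) had the higher change in the null, and Fndc3b (-2.61), Fhdc1 (-3.70), Stard8 (-5.32), Cpm (-2.81), Jak2 (-3.72), Rhou (-1.81), Rgma (-3.18) and Fmr1nb (-4.43) the lower, as differences of log2 fold changes. Each was called in 32 to 34 of 36 alternatives. None of these 36 held marker or Y gene terms or split the libraries by depth.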

How the results depend on the processing

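The 20 null calls kept their sign under all 26 alternatives, and 302 of 520 gene and alternative combinations kept the call. The number of null calls moved to 296 with DESeq2, 437 with voom and weights, 104 with 35 libraries, 10 with Y genes as a term, 181 and 0 against the E6.5 libraries under and over 40000000 counts (the 0 with 2485 unadjusted p under 0.05), 53 without E6.5 null 1 and 3, and between 0 and 32 when each library was left out. With the replicate number as a block (3 numbers shared, pairing not established, though each of the 3 correlated best with its own number) edgeR called 0 genes, with 1656 at an unadjusted p under 0.05. Visceral endoderm or extraembryonic ectoderm markers as a term kept 7 and 6 of the 20.

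The WT calls numbered 2805 without a filter, 2610 with voom and 1363 to 1902 with a library left out. The calls of the difference numbered 595 with DESeq2, 35 without a filter, 186 at a mean count of 50, 1499 with voom, 22 with the replicate block, and 0 to 482 with a library left out (482 without E7.5 WT 3, 0 without E7.5 null 1 or 2). The position difference ranged from 0.0449 to 0.222 with a library left out, was 0.138 (p = 0.25, the smallest exact permutation p there) over the shared numbers, and passed the test with log2 CPM at 0.392. The Stat3 change ranged from -1.85 to -1.53 with a library left out. It was -1.36 with voom and weights and -0.993 with extraembryonic ectoderm markers as a term. List medians moved by less than the SD of the list value over the E6.5 null libraries in 531 of 650 cases. That SD is not the spread of the medians themselves. The cause of these moves was not tested.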
